A study of Mus musculus with 2 samples.

Results

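The proteasome is the protease complex that degrades proteins tagged with ubiquitin. Its core particle is a barrel of stacked rings, in which the outer alpha rings gate the entrance and the inner beta rings carry the protease sites. A regulatory particle caps the barrel, with a base whose ATPases unfold substrates and a lid that removes ubiquitin. Alternative activators can dock in its place, and dedicated chaperones assemble the parts. In mouse brown fat, the tissue that burns lipid for heat, the transcription factor encoded by Nfe2l1 is known to sustain proteasome activity during cold adaptation.

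Proteasome genes were taken from the deposited table as symbols made of Psm, a letter from a to g and a number, without the immune catalytic subunit genes Psmb8, Psmb9 and Psmb10. This found 44 of 10778 gene symbols. Of these, 43 encode proteasome components, with 7 genes of the alpha ring, 7 of the beta ring, 9 of the base, 8 of the lid, 5 of activators and an inhibitor, and 7 of assembly chaperones. Psmc3ip was the remaining symbol, and it encodes a protein of meiotic recombination and no proteasome component. The study sequenced poly(A) RNA of brown adipose tissue of C57BL6/J males, 8 to 12 weeks of age. SML mice were injected intraperitoneally with SML, 5 mg per kg of body weight, while on a diet that drew 60% of its energy from fat, over 10 days. HFD control mice had the same diet and duration and no SML. The title of the series speaks of sesaminol, a lignan of sesame, where the labels write SML. Each group had 1 library, and the sources used here do not give its number of animals.

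With 1 library per group no difference had a replicate check, and no test or p-value was possible. The SML library held 8502352 fragments within the table and the HFD control library 11995913. Levels are given as FPKM (fragments per kilobase of transcript, scaled to library size), a scale per length on which different subunits can be compared. A difference is log2(FPKM + 1) in SML minus the same in HFD control, and a gene counted as higher or lower in SML when it reached 1.5-fold on that scale. The added 1 shrinks the difference of weakly expressed genes. A ratio is the scaled count in SML over that in HFD control, with a 95% exact conditional binomial interval that covers counting error only. All 44 symbols passed the filter of a mean FPKM of at least 1.

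Most proteasome genes differed little between the libraries. Psmb5, which encodes the chymotrypsin-like protease subunit of the core, had 277 FPKM in SML and 432 in HFD control and was the 1 symbol of 44 that was lower by the 1.5-fold rule. Psmc6, an ATPase subunit gene of the base, had 49.9 FPKM in SML and 32.9 in HFD control and was the 1 symbol that was higher. Each count was 2.27% of the 44 symbols, whereas 5.44% of the 9887 genes kept were higher and 5.76% were lower. At a lower threshold, a difference of 0.32 on the log2 scale, 3 symbols were higher (Psma4, Psmc3ip and Psmc6), where 17% of all genes were, and 4 lower (Psmb2, Psmb3, Psmb5 and Psmd10), where 16.3% were. At 2-fold 0 symbols were higher and 0 lower, where 0.668% of all genes were higher and 1.96% lower. The median difference of the 43 components was -0.07, beside a median of 0.00 and quartiles of -0.21 and 0.22 over all genes kept. Of the 6 groups the beta ring had the lowest median difference, at -0.28, and the lid the highest, at 0.06.

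**Figure D1:**
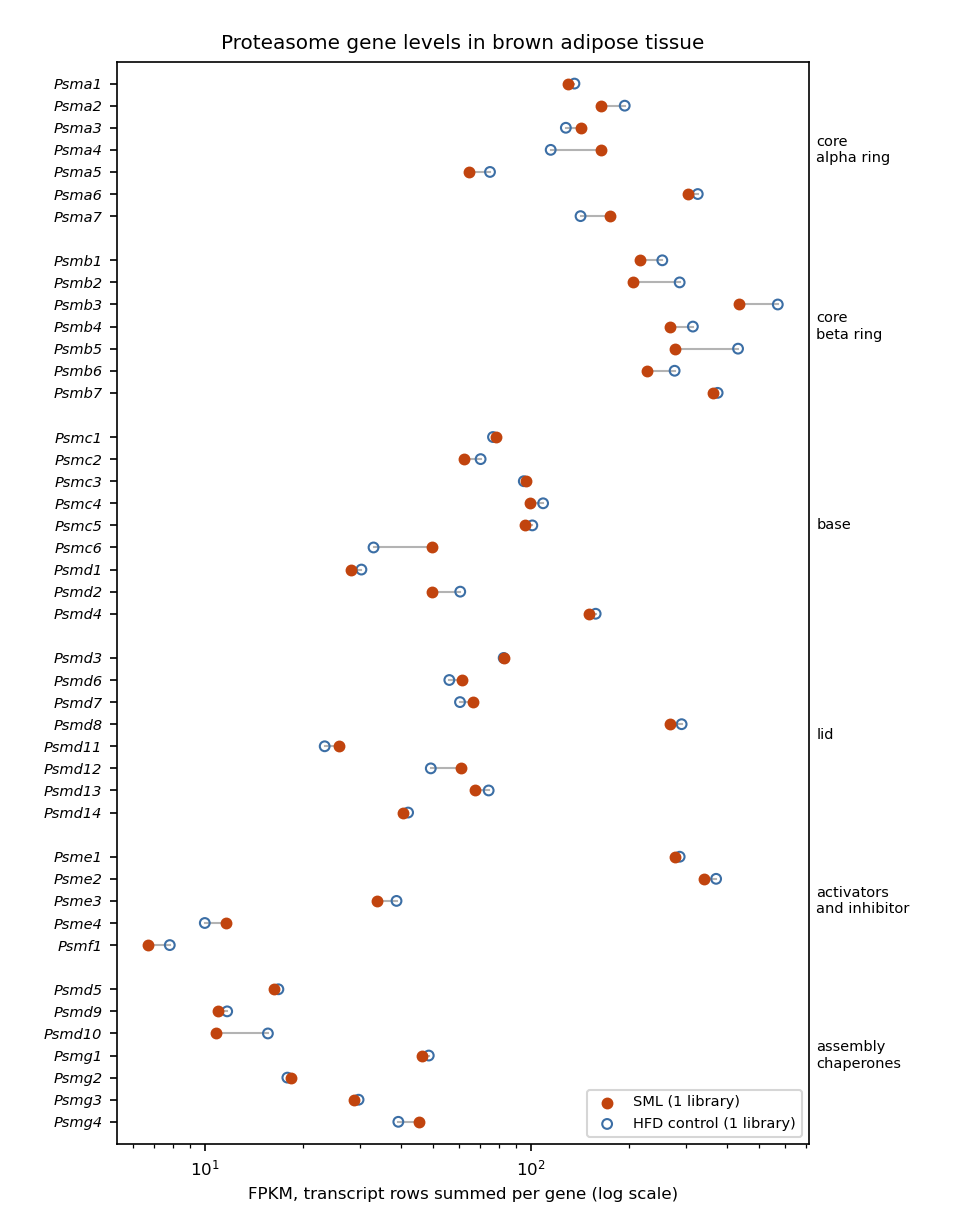
FPKM of each of the 43 proteasome components in the SML library (filled) and the HFD control library (open), on a log scale and ordered by group. The beta ring genes lie between 206 and 435 FPKM in SML and between 253 and 572 in HFD control, and the widest gaps between the points include Psmb5, Psmb2, Psma4, Psmc6 and Psmd10.

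Psmb5 lies at chr14:54614119-54618022 on the minus strand and Psmc6 at chr14:45329788-45349705 on the plus strand (mm10). GENCODE M21 gives Psmb5 3 blocks of exons and Psmc6 14. The promoters of the 2 lowest and the 2 highest components with a RefSeq entry are printed to show the sequence at both ends of the range of differences, from 250 bases before to 50 after the start (RefSeq, GRCm38.p6, 5′ to 3′ on the strand of the gene). Psmd10 is an assembly chaperone gene and Psma4 an alpha ring gene. The promoters lie at chr14:54617946-54618245 for Psmb5, chrX:140956662-140956961 for Psmd10, chr14:45329574-45329873 for Psmc6 and chr9:54950609-54950908 for Psma4. Capitals mark the letters TGANNNNGC of the antioxidant response element, the site class of factors of the Nfe2l1 and Nfe2l2 family, and the letters CCAAT of the box that the Nfya, Nfyb and Nfyc proteins bind, each on either strand.
Psmb5: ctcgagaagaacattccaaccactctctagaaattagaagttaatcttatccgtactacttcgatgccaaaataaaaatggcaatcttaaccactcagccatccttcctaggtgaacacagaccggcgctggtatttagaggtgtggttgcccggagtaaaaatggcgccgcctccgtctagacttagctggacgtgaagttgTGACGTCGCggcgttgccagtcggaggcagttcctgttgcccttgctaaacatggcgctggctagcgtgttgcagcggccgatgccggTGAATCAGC
Psmd10: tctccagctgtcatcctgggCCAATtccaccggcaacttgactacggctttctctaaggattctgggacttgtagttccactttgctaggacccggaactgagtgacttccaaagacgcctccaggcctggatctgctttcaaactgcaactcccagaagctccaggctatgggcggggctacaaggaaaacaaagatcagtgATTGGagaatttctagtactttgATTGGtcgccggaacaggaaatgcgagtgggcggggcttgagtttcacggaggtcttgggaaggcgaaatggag
Psmc6: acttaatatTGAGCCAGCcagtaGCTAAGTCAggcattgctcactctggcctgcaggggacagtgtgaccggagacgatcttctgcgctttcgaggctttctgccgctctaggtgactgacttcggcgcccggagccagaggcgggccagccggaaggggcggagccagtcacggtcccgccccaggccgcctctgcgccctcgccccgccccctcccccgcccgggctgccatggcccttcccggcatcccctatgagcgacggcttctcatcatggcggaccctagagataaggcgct
Psma4: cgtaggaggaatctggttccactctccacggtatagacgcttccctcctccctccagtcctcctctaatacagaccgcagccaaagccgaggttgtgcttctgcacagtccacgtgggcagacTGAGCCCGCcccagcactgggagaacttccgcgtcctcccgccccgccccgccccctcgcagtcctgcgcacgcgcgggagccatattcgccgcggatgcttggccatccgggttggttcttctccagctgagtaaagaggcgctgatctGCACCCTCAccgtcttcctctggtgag
The TGANNNNGC letters occurred at 2 places each in the Psmb5, Psmc6 and Psma4 promoters and at 0 in the Psmd10 promoter. The CCAAT letters occurred at 3 places in the Psmd10 promoter and at 0 in the other three. Of the 43 components 36 had a promoter entry, and they gave 39 promoters. TGANNNNGC was found in 22 of the 39 (56.4%), against 41.3% of all 32851 promoters of the same length and 42.9% of the 9686 promoters of genes kept here. CCAAT was found in 12 of the 39 (30.8%), against 37.4% of all promoters. TGANNNNGC overlaps the letters of the AP-1 and cAMP response motifs, so a match is a description of letters and names no bound factor. All 4 beta ring promoters with an entry held TGANNNNGC, in Psmb3, Psmb4, Psmb5 and Psmb6. So did 5 of 8 alpha ring promoters, 3 of 9 base promoters (33.3%), 3 of 6 lid promoters, 3 of 6 of the activators and inhibitor and 4 of 6 of the chaperones.

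**Figure D2:**
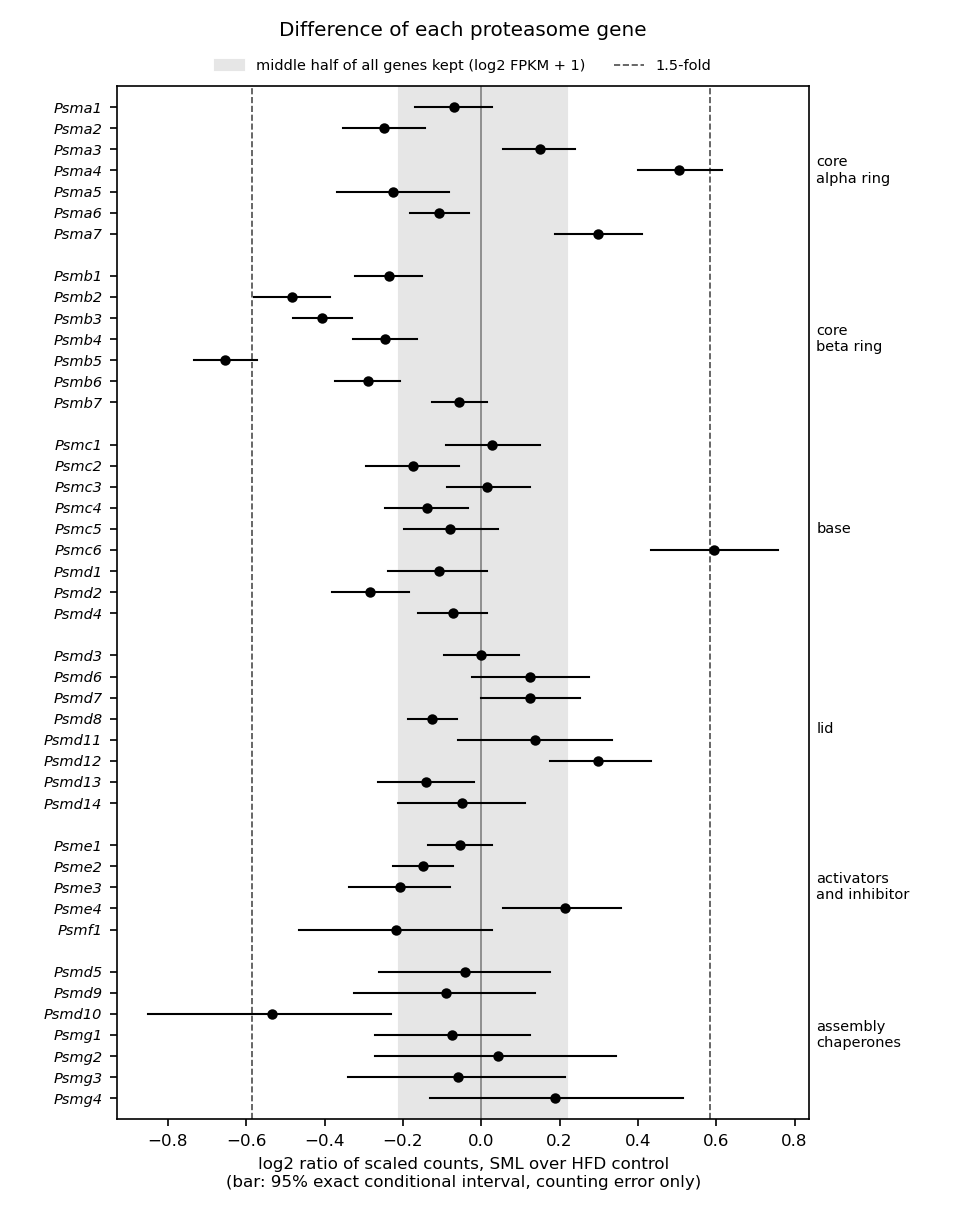
Log2 ratio of scaled counts (SML over HFD control) of the 43 components, with bars for the 95% interval of counting error, dashed lines at 1.5-fold and a grey band between the quartiles of the differences of all genes kept. All 7 beta ring genes lie left of 0, and the other groups spread over both sides.

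All 7 beta ring genes had differences below 0, from -0.64 to -0.05, where 49.8% of all genes kept did. Psmb5 had 1855 fragments in SML and 3959 in HFD control, and its ratio was 0.636 (0.602 to 0.673). Psmb6, the caspase-like catalytic subunit gene, had 227 FPKM in SML and 276 in HFD control, a ratio of 0.818 (0.772 to 0.866). Psmb7, the trypsin-like catalytic subunit gene, had 361 FPKM in SML and 374 in HFD control, and the interval of its ratio included 1 (0.962, 0.916 to 1.01). The catalytic genes thus spanned the whole range of the ring, with Psmb5 at its low end and Psmb7 at its high end. Psmb5 was the most abundant of the catalytic genes in HFD control, whereas Psmb7 was in SML, and the level of Psmb5 over that of Psmb7 was 0.766 in SML and 1.16 in HFD control. The differences varied with GC content and transcript length across all genes. With that trend removed they were -0.44 for Psmb5, -0.07 for Psmb6 and 0.04 for Psmb7.

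The other 4 beta genes encode subunits without protease activity. Psmb3, the most abundant proteasome gene in both libraries, had 435 FPKM in SML and 572 in HFD control, a ratio of 0.755 (0.717 to 0.795). Psmb2 had 206 FPKM in SML and 286 in HFD control, a ratio of 0.715 (0.669 to 0.765), the second lowest of the ring. Psmb1 had 216 FPKM in SML and 253 in HFD control, a ratio of 0.849 (0.8 to 0.901). The remaining gene, Psmb4, had a difference of -0.24. The differences of these 4 genes lay between -0.32 and -0.09 with the GC content and length trend removed. The interval lay below 1 for 6 of the 7 beta ring genes and above 1 for 0. Over all genes kept it lay below 1 for 23.5% and above 1 for 25.1%. These shares are not a like background, since the interval narrows with more fragments and the beta ring genes are among the more abundant.

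The alpha ring genes went both ways, with 0 of 7 past the 1.5-fold rule, 4 differences below 0 and 3 above. Among all genes kept 5.44% were higher by the rule, 5.76% were lower and 49.8% had a difference below 0. Psma4 had 164 FPKM in SML and 115 in HFD control, a ratio of 1.42 (1.32 to 1.53) and the highest difference of the ring, 0.51. Psma7 had 175 FPKM in SML and 142 in HFD control, a ratio of 1.23 (1.14 to 1.33). These subunits close the entrance of the barrel and bind the regulatory particle. Psma2 had 164 FPKM in SML and 194 in HFD control, a ratio of 0.842 (0.783 to 0.905). Psma5 had 64.4 FPKM in SML and 74.9 in HFD control, a ratio of 0.856 (0.775 to 0.945), and was the least abundant gene of the core in both libraries. Psma6, the most abundant alpha gene, whose assembled locus also encloses the coding genes 1110008L16Rik and Nfkbia, had 303 FPKM in SML and 325 in HFD control, a ratio of 0.928 (0.881 to 0.978). The other 2, Psma1 and Psma3, had differences of -0.06 and 0.15. Psma2 and Psma4 therefore had nearly equal levels in SML, where the HFD control library had Psma2 above Psma4.

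Alpha and beta subunits enter the core in equal copy numbers, and their summed transcript levels differed. The beta ring genes summed to 1988 FPKM in SML and 2508 in HFD control, with a ratio of summed counts of 0.797 (0.78 to 0.814). The alpha ring genes summed to 1144 FPKM in SML and 1115 in HFD control, with a ratio of 1.03 (1 to 1.05). The beta sum was thus 1.74 times the alpha sum in SML and 2.25 times in HFD control. It leaves out the genes of the immune catalytic subunits, which can take beta ring positions and summed to 188 FPKM in SML and 319 in HFD control. The ranges of the gene differences overlapped between the rings, -0.64 to -0.05 in the beta and -0.24 to 0.51 in the alpha ring. Within a ring the levels were closer in the beta than in the alpha genes: the highest beta gene was 2.11 times the lowest in SML and 2.26 times in HFD control, and the highest alpha gene was 4.71 times the lowest in SML and 4.34 times in HFD control.

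**Figure D3:**
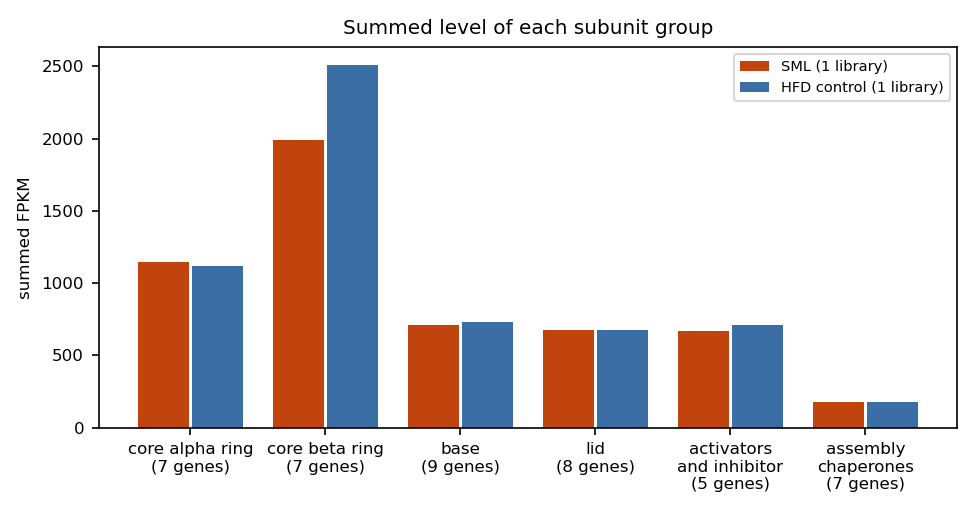
Summed FPKM of the genes of each group in the SML library (left bar) and the HFD control library (right bar), 1 library each and so without error bars. The beta ring pair differs visibly, 1988 FPKM in SML and 2508 in HFD control, while the pairs of the other groups are closer in height.

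The base had 1 of 9 genes higher, Psmc6, and 0 lower, where 5.44% of all genes kept were higher and 5.76% lower. Its median difference was -0.07. Psmc6 had 672 fragments in SML and 604 in HFD control, and its ratio was 1.51 (1.35 to 1.69). It was the least abundant of the 6 ATPase genes, which form a ring of their own that threads substrates into the core. Psmc1, the next highest base gene, had 78.4 FPKM in SML and 76.5 in HFD control, a ratio of 1.02 (0.939 to 1.11). Psmc2, the lowest ATPase gene by difference, had 62.2 FPKM in SML and 70.1 in HFD control, a ratio of 0.886 (0.816 to 0.961). With Psmc6 closer to the rest, the highest ATPase gene was 1.98 times the lowest in SML and 3.3 times in HFD control.

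The base also holds non-ATPase subunits, and all 3 of their genes had differences below 0, where 49.8% of all genes kept did. The interval of the ratio lay below 1 for 1 of the 3. Only 2 of the 3 were below 0 with the GC content and length trend removed. The difference of Psmd4 was 0.10 with that trend removed and also 0.10 from its highest transcript alone. Psmd2, a scaffold that docks proteins carrying ubiquitin chains, had 49.9 FPKM in SML and 60.7 in HFD control, a ratio of 0.822 (0.768 to 0.88) and the lowest of the base. Psmd4, a ubiquitin receptor gene, was the most abundant base gene with 151 FPKM in SML and 158 in HFD control, a ratio of 0.951 (0.894 to 1.01). The 4 base genes not named here by value (Psmc3, Psmc4, Psmc5 and Psmd1) had differences between -0.13 and 0.02.

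The lid had 0 of 8 genes past the rule, where 5.44% of all genes kept were higher and 5.76% lower. It had 5 differences above 0 and 3 below, where 49.8% of all genes kept were below 0. Psmd12 had 61 FPKM in SML and 49.3 in HFD control, a ratio of 1.23 (1.13 to 1.35), the highest of the lid. Psmd11 had 25.7 FPKM in SML and 23.3 in HFD control, with a ratio whose interval included 1 (1.1, 0.96 to 1.26). Both encode scaffold subunits of the horseshoe-shaped lid. Psmd13 had 67.5 FPKM in SML and 74.2 in HFD control, a ratio of 0.907 (0.833 to 0.987). Psmd8, the most abundant lid gene, had 267 FPKM in SML and 290 in HFD control, a ratio of 0.917 (0.878 to 0.958). The other 4, among them Psmd14 for the deubiquitinase of the lid, had differences from -0.05 to 0.13. With the GC content and length trend removed, the difference was 0.22 for Psmd12, 0.01 for Psmd13 and 0.03 for Psmd8. Of the 8 lid genes 1 was then below 0, where 45.9% of all genes were. The sums were nearly equal between libraries, at 712 FPKM in SML and 734 in HFD control for the base and at 672 FPKM in SML and 678 in HFD control for the lid.

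Psmd8 stood out among the lid genes by its level, since the lid median was 63.9 FPKM in SML and 58.4 in HFD control. Its level was close to those of the beta ring. Core genes averaged 2.75 times the mean level of base and lid genes in SML and 3.11 times in HFD control.

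None of the 5 activator and inhibitor genes passed the rule (0 higher, 0 lower), where 5.44% of all genes kept were higher and 5.76% lower. Psme1 and Psme2 encode the paired subunits of the interferon-inducible activator. Psme1 had 277 FPKM in SML and 286 in HFD control, a ratio of 0.963 (0.91 to 1.02). Psme2 had 340 FPKM in SML and 370 in HFD control, a ratio of 0.902 (0.856 to 0.951). Their levels were in the range of the beta ring, far above those of the other activators. Psme3, which encodes the nuclear activator, had 33.6 FPKM in SML and 38.7 in HFD control, a ratio of 0.866 (0.791 to 0.947). Psme4, the gene of a large activator known from histone turnover in germ cells, had 11.6 FPKM in SML and 9.99 in HFD control, a ratio of 1.16 (1.04 to 1.28). Psmf1, which encodes a protein first described as a proteasome inhibitor, had 6.71 FPKM in SML and 7.8 in HFD control, and the interval of its ratio included 1 (0.86, 0.724 to 1.02). With the GC content and length trend removed, the difference was 0.03 for Psme2, -0.15 for Psme3 and 0.00 for Psme4.

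The assembly chaperones were the least abundant group, with a median of 18.4 FPKM in SML and 17.9 in HFD control. By the rule 0 of 7 were called, where 5.44% of all genes kept were higher and 5.76% lower. Psmd10, known as gankyrin, which holds an ATPase subunit during base assembly, had 10.8 FPKM in SML and 15.6 in HFD control, a ratio of 0.69 (0.555 to 0.853). It was the 1 chaperone gene whose interval lay off 1, and it had 133 fragments in SML and 262 in HFD control. Psmd9, another base chaperone gene, had 11 FPKM in SML and 11.7 in HFD control, a ratio of 0.94 (0.799 to 1.1). Psmg1 to Psmg4 encode the chaperones that build the alpha ring. Psmg1, the most abundant, had 46.4 FPKM in SML and 48.6 in HFD control, a ratio of 0.95 (0.829 to 1.09). Psmg2 had 18.4 FPKM in SML and 17.9 in HFD control, a ratio of 1.03 (0.828 to 1.27). Psmg4 had 45.3 FPKM in SML and 39.2 in HFD control, a ratio of 1.14 (0.913 to 1.43). The other 2, Psmd5 and Psmg3, had differences of -0.04 and -0.05. Psmc3ip, which shares only its name with the complex, had 2.47 FPKM in SML and 1.52 in HFD control on 19 fragments in SML and 16 in HFD control, and the interval of its ratio was wide (1.61, 0.786 to 3.35).

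Summed over the 43 components the ratio of counts was 0.922 (0.911 to 0.932), with 5361 FPKM in SML and 5926 in HFD control. The components took 0.68% of the FPKM of the whole table in SML and 0.709% in HFD control. The beta ring accounted for 37.1% of the components' FPKM in SML and 42.3% in HFD control. Of the 43 genes 29 had a difference below 0 (67.4%, against 49.8% of all genes kept). With the GC content and length trend of all genes removed, 19 of the 43 did, against 45.9% of all genes, and the median of the components was 0.02. The interval of the ratio, without that correction, lay below 1 for 17 of the 43, above 1 for 6 and included 1 for 20. Over all genes kept it lay below 1 for 23.5% and above 1 for 25.1%. The interval narrows with more fragments, so genes of unlike level are not compared on equal terms.

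Of the members 4 had more than 1 assembled transcript in the table, and in 2 of them the rows went apart. The main Psme2 transcript had 298 FPKM in SML and 357 in HFD control, a ratio of 0.83 (0.786 to 0.877). The second Psme2 transcript had 41.8 FPKM in SML and 12.8 in HFD control, a ratio of 3.25 (2.59 to 4.15), and its share of the gene's level was 12.3% in SML and 3.46% in HFD control. For Psmd4 the more abundant row had 92.5 FPKM in SML and 86.3 in HFD control, and the other had 58.9 FPKM in SML and 72.2 in HFD control. The rows of Psmd10 and Psmg4 moved with their gene: both Psmd10 ratios were below 1 (0.714 and 0.514) and both Psmg4 ratios above 1 (1.14 and 1.15). Transcript levels are the authors' estimates, which divide fragments between overlapping transcripts, so their intervals understate the error.

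The immune catalytic subunits replace their constitutive partners after interferon, and 2 of their 3 genes, Psmb8 and Psmb9, were lower by the 1.5-fold rule. Over all genes kept 5.76% were lower. Psmb8, the partner of Psmb5, had 66.3 FPKM in SML and 125 in HFD control, a ratio of 0.53 (0.484 to 0.58). Psmb9, the partner of Psmb6, had a ratio of 0.51 (0.448 to 0.579), and Psmb10, the partner of Psmb7, of 0.759 (0.691 to 0.833). The constitutive gene exceeded its partner in both libraries, 4.17-fold in SML and 3.47-fold in HFD control for Psmb5 over Psmb8, and 4.12-fold in SML and 2.57-fold in HFD control for Psmb6 over Psmb9.

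Genes that control proteasome expression were described from a list chosen for this purpose, of which 21 genes passed the filter. Of the 21 genes 2 were higher and 0 lower, where 5.44% of all genes kept were higher and 5.76% lower. Their median difference was 0.13. Of the higher genes Ddi2 passed the filter only through SML, where it was high. Nfe2l1, the regulator named above, had 117 FPKM in SML and 107 in HFD control, a ratio of 1.11 (1.06 to 1.15). Its protein must be freed of sugar chains and cut before it acts. Ngly1, the gene of the deglycosylating enzyme, had 16.1 FPKM in SML and 9.18 in HFD control, a ratio of 1.76 (1.52 to 2.03). Ddi2, the gene of the cutting protease, had 1.47 FPKM in SML and 0.6 in HFD control, a ratio of 2.45 (1.48 to 4.03). The difference of Ngly1 was 0.57 with the trend on GC content and length removed, under the 1.5-fold rule, and that of Ddi2 was 0.70.

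Of 21 further genes of proteins that bind or help build the proteasome 3 were higher and 0 lower, with a median difference of -0.05. Over all genes kept 5.44% were higher and 5.76% lower. Ddi2 belongs to both lists. Ube3a and Ddi2 passed the filter only through SML, where they were high, which leaves 1 of the 3, AI314180, not fixed by the filter. Ube3a, a ubiquitin ligase gene, had 2.22 FPKM in SML and 0.35 in HFD control, a ratio of 6.31 (3.94 to 10.5). AI314180, the table's symbol for Ecpas, which encodes a proteasome adaptor, had 11.7 FPKM in SML and 7.16 in HFD control, a ratio of 1.63 (1.45 to 1.83). Pomp, the chaperone gene for the beta ring, had 188 FPKM in SML and 237 in HFD control, a ratio of 0.789 (0.729 to 0.853). Adrm1, a ubiquitin receptor gene of the base, had 94 FPKM in SML and 110 in HFD control, a ratio of 0.85 (0.789 to 0.916). Pomp and Adrm1 were thus below HFD control by about as much as the middle of the beta ring, and neither reached 1.5-fold. With the GC content and length trend removed, the difference was -0.13 for Pomp and -0.08 for Adrm1, beside a beta ring median of -0.20.

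**Figure D4:**
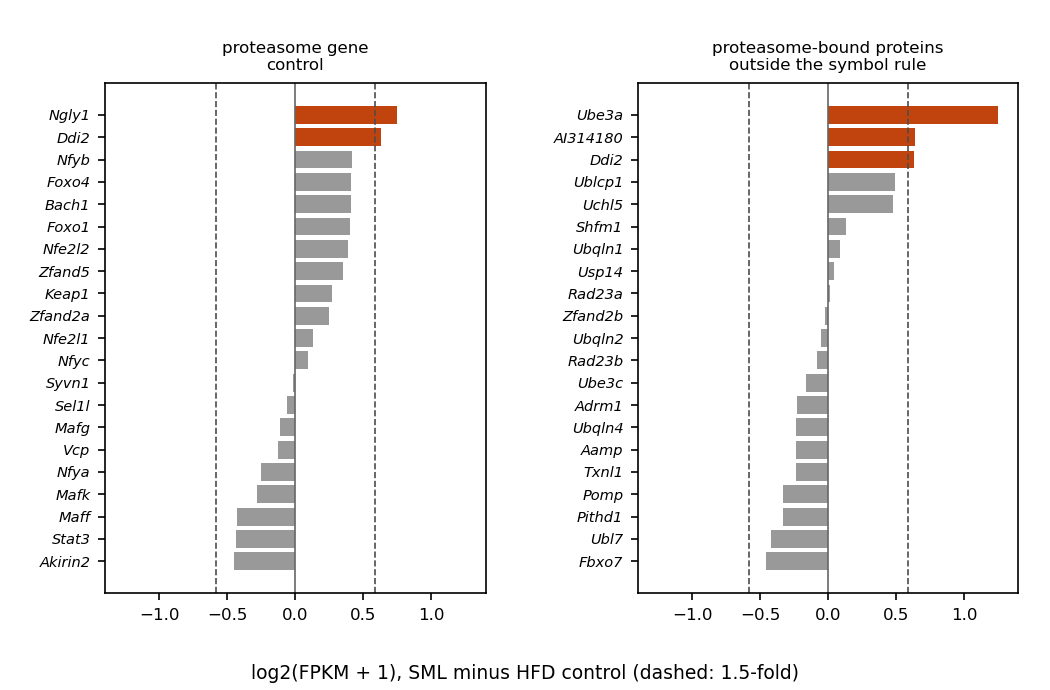
Difference in log2(FPKM + 1), SML minus HFD control, of the genes of both companion lists with a mean FPKM of at least 1, in colour where 1.5-fold (dashed) was reached. Ngly1, Ddi2, Ube3a and AI314180 pass on the high side, and no gene of these lists passes on the low side.

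The differences varied with base composition across all genes. Over the 9524 genes with a GC value the difference had a Spearman rho of -0.33 with GC content, and over the 43 components -0.23. The rho was -0.53 over the 14 core genes and -0.37 over the 17 base and lid genes. These values are descriptions across genes that share both libraries. Psmc6 had the lowest GC content of the components, 37%, and Psmb5 had 56.6%. The median GC content was 52.2% in the beta ring genes and 45% in the alpha ring genes. With the GC and length trend of all genes removed, the difference of Psmc6 was 0.14 and that of Psmb5 was -0.44, so that neither reached 1.5-fold. Psmd10, at 42.3% GC, was then the 1 member that was lower, at -0.64, where 4.67% of all genes were, and 0 were higher, where 4.12% were. In the beta ring 6 of 7 differences were then below 0, where 45.9% of all genes were. The nearest to 0 of these were Psmb6 at -0.07 and Psmb4 at -0.09. The beta ring median was -0.20, beside -0.06 in the alpha ring, 0.06 in the base, 0.15 in the lid and 0.03 over all genes.

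**Figure D5:**
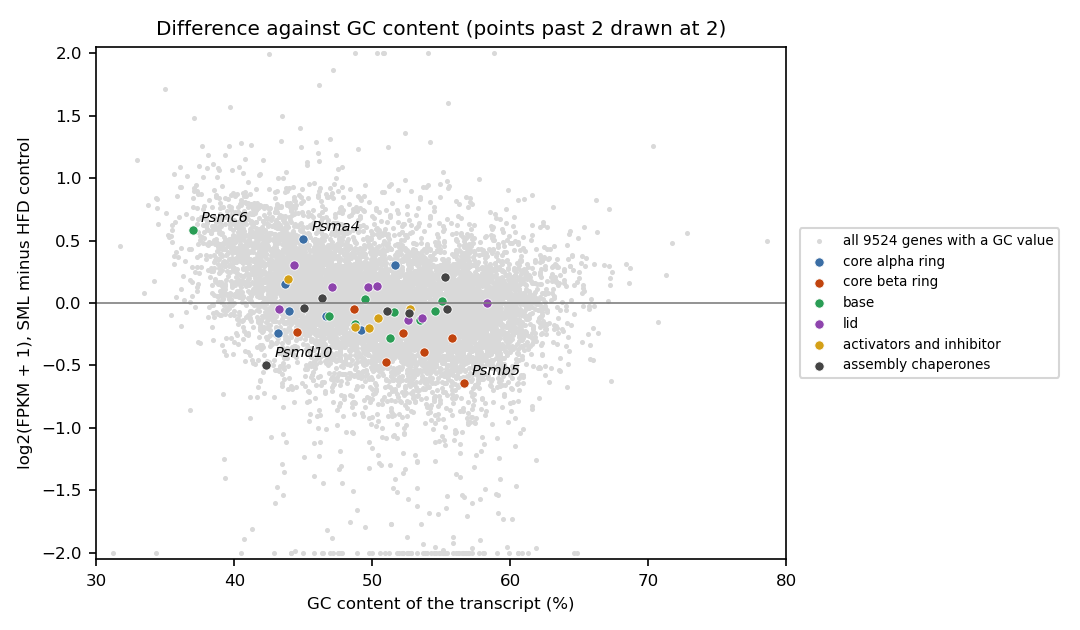
Difference in log2(FPKM + 1), SML minus HFD control, against transcript GC content for all 9524 genes with a value (grey) and the 43 components coloured by group. Psmc6 lies at the low-GC edge at 37% and Psmb5 at 56.6%, on a cloud that slopes down to the right.

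Other cell types differed between the libraries, and in bulk tissue fewer cells of a type cannot be told apart from less RNA per cell. Over all genes kept 5.44% were higher and 5.76% lower. Of 8 brown adipocyte markers 2 were higher and 0 lower (27459 FPKM summed in SML and 35252 in HFD control), and of 5 general adipocyte markers 0 were past the rule. Most of the gap between the brown adipocyte sums lay in Cox8b, with 14824 FPKM in SML and 22044 in HFD control. Its difference of -0.57 was just short of the rule, and its ratio was 0.659 (0.649 to 0.669). Ucp1, the heat-producing protein gene that defines brown fat, had 7955 FPKM in SML and 8702 in HFD control. All 14 skeletal muscle markers were lower (271 FPKM summed in SML and 4101 in HFD control), with 0 of them at 0. So were 5 of 8 macrophage markers (272 FPKM in SML and 439 in HFD control), 4 of 4 MHC class II markers (589 FPKM in SML and 1265 in HFD control) and 4 of 4 erythroid markers (1012 FPKM in SML and 1974 in HFD control). Of interferon response genes 5 of 12 were lower (206 FPKM in SML and 391 in HFD control), and of endothelial markers 1 of 4 (61.6 FPKM in SML and 91.8 in HFD control). The hepatocyte markers summed to 0.25 FPKM in SML and 17.7 in HFD control over the 4 genes in the table, with Alb, Fgb and Ttr listed at 0 in SML, and the 3 kept (Alb, Apoa1 and Ttr) were lower. Those 3, with the muscle markers Myh1, Myh2 and Myh7, passed the filter only through HFD control, and the brown adipocyte marker Zic1 only through SML. Of T cell markers 0 of 2 and of B cell markers 0 of 1 passed the rule. Proteasome genes are active in all of these cell types, and the part of the mixture in the values above was not tested.

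Exons of some members overlap those of other annotated genes in GENCODE M21, and Psmc6 has no such overlap. Psmb5 shares 109 exon bases with the microRNA gene Mir686 on its own strand, Psmb7 shares 405 with Nek6 and Psma4 114 with AY074887 on the opposite strand. The overlap is longest for Psmd9, which shares 1849 exon bases with Gm26745, and Psmd13 shares 342 with Sirt3, both on opposite strands. Psmb5, Psmb6 and Psmb7 also have named processed pseudogenes. The sources used here do not say how fragments that match several places were assigned, nor whether strand was used, so the levels of these genes are less certain.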

How the data were processed

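Poly(A) RNA of 1 SML and 1 HFD control library was sequenced. Base calls came from CASAVA 1.8 and transcripts from Cufflinks on mm10, per the submitters' processing notes, and the sources used here name no aligner and no annotation. The deposited table holds FPKM per assembled transcript and a scaled signal, estimated counts that the authors multiplied by a factor per library. From low values 1 fragment was worth 0.866 in SML and 0.637 in HFD control, and 90.8% of 780 low values in SML and 90.7% of 536 in HFD control were then whole within 0.1. An FPKM listed as 0 can be a failed estimate.

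Transcript rows were summed per symbol, a pseudocount of 1 was added, and genes were kept from a mean of 1 FPKM upward. The table holds 17 symbols that look like dates and were left as they are. Intervals are exact, for counting error only. GC content and length came from the GENCODE M21 transcript nearest to the length implied by the table, and a quadratic trend over 9524 genes was removed as an alternative. Promoters were matched by symbol.

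The members and lists were chosen with earlier results of these data known. Named genes were those past 1.5-fold, the 2 highest and 2 lowest and the most abundant of each group, Psmb5, Psmb6, Psmb7 and Psmc3ip, and in the companion lists those past 1.5-fold with Nfe2l1, Pomp and Adrm1. Other genes are named where a list or group is filled out or a promoter or overlap is described. Alternatives were the pseudocount, the filter, the highest transcript per symbol and the ratio of scaled counts with 1 added to each. Further alternatives were 2 other scalings, the GC and length trend, and other fold thresholds. Python 3.11.15, numpy 2.4.6, pandas 2.3.3, scipy 1.17.1 and matplotlib 3.10.9 were used, and the steps were checked on simulated data. The result of 1 further gene list is not reported here.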

Additional observations from a re-analysis of the deposited data

How the results depend on the processing

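With 1 library per group no replicate could be left out. No paired analysis was possible because each group had 1 library. The number of proteasome symbols higher in SML, 1 in the values reported, was 2 with a pseudocount of 0.1 and 2 by the ratio of scaled counts, both through Psmc3ip. For single genes this alternative ratio was taken with 1 added to each scaled count. The number was 0 with the GC content and length trend removed. That trend also gave Psmd10 in place of Psmb5 as the 1 lower symbol, a beta ring median of -0.20 and a base median of 0.06, above 0. At a threshold of 0.32 on the log2 scale 3 symbols were higher and 4 lower, and at 2-fold 0 were higher and 0 lower. Of all genes 847 were higher with a pseudocount of 0.1, 883 by scaled counts, 319 with a mean FPKM of at least 5 (306 lower), 1677 at that lower threshold (1611 lower) and 66 at 2-fold (194 lower), and 1117 were lower without the filter on low values. The summed level of all components, 0.905 by FPKM, was 0.922 by scaled counts. Equal totals outside the 50 highest genes shifted the median of all genes by 0.05, and 6 of 7 beta ring differences were then below 0. Of 247 values of the 31 named members under the alternatives, 232 stayed within the counting error of the ratio and 15 moved by more. The filter settings cannot alter a member's value and the median scaling hardly does, so those values stayed by design. The highest transcript can alter only the 4 members with several transcript rows. Equal totals add nearly the same amount to every member. The 232 is therefore no measure of stability. With the GC content and length trend removed 13 of the 31 moved. A change of sign was looked for only in Psmb5 and Psmc6, the members past the rule, and 0 occurred. Of the 43 components 16 were below 0 and 12 above 0 in all 9 settings, the main one included. A constant sign was not counted over all genes, so these counts have no background. The settings share the same libraries and several hardly alter a member's value, so they are not independent checks. Depth limits the precision of Psmc3ip, with 19 fragments in SML and 16 in HFD control, and of low genes such as Psmd10, Psmg4 and Psmf1.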
